A study of Mus musculus with 24 samples.

Results

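The mRNAs of 10 core proteins that make microRNAs (miRs) and carry out their silencing were followed in the nucleus accumbens (NAc) of mice after subchronic variable stress (SCVS): *Drosha*, *Dgcr8*, *Xpo5*, *Dicer1*, *Tarbp2*, *Prkra*, *Eif2c1* (Ago1), *Eif2c2* (Ago2), *Tnrc6a* and *Tnrc6b*. The members were chosen by name and matched by Ensembl identifier, and they are 10 of 38293 genes in the mRNA table. All 10 passed the filter on low counts, which left 18593 genes for testing. The mice were C57BL/6J, 9 weeks old by their labels, either exposed to SCVS or left unstressed, and the groups were unstressed males (NSM), stressed males (SM), unstressed females (NSF) and stressed females (SF). Each group had 3 libraries of mRNA and 3 of small RNA, and each of them combined the tissue of 5 mice (10 punches), so that n counts pools and not mice. By the study's methods, female tissue was taken in estrus or proestrus.

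A miR gene is copied into a long primary transcript. In the nucleus the microprocessor, made of the nuclease Drosha and its RNA-binding partner Dgcr8, cuts a hairpin out of that transcript, and Exportin-5 (*Xpo5*) carries the hairpin to the cytoplasm. There Dicer, helped by the double-stranded RNA-binding proteins Trbp (*Tarbp2*) and Pact (*Prkra*), cuts off the loop. One strand of the resulting duplex is loaded into an Argonaute protein, which finds target mRNAs through the seed, bases 2 to 8 of the miR. The scaffold proteins Tnrc6a and Tnrc6b bind Argonaute and recruit the enzymes that shorten the poly(A) tail. Ago2 is the Argonaute that can itself cut RNA. Dgcr8 also binds a hairpin in its own mRNA, and the miR of that hairpin, mir-1306, was read here in the small RNA.

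The hairpin of mir-1306 is shown because it lies inside a member. In NCBIM37, the build of the count tables, it lies on the minus strand at chr16:18284332-18284410, within a coding exon of *Dgcr8* (chr16:18254041-18289342, minus strand). Its RefSeq sequence, placed in GRCm38.p6 at chr16:18284239-18284317, is given below with both mature arms in capitals, and each arm is then given with its seed in capitals.
mir-1306 hairpin: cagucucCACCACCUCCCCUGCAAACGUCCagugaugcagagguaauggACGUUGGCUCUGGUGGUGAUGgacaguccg
miR-1306-5p: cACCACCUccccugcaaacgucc
miR-1306-3p: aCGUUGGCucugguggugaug

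Of the 23 miRs followed for their route of production or as regulators of *Dicer1*, 22 had a RefSeq entry. The 5 shown next are mature arms of the miRs described below. The counted rows are precursors and do not tell the arms apart, so no value below belongs to 1 arm. The mirtrons mir-877 and mir-1981 come from short spliced introns that skip the microprocessor, let-7b belongs to the large let-7 family, and miR-103 and miR-107 are known to target *Dicer1* and share a seed. Seeds are in capitals.
miR-877-5p: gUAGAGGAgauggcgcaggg
miR-1981-5p: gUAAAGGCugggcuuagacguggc
let-7b-5p: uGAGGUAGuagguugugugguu
miR-103-3p: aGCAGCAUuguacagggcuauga
miR-107-3p: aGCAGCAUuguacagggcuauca

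The mRNA libraries held 41076780 to 60867747 counted reads and the small RNA libraries 5086554 to 13522287. Levels are given as CPM, read counts brought to a common library size with TMM factors, and levels between genes are compared only per length, as RPKM. Markers of striatal medium spiny neurons were high in all 12 libraries, where the 10 markers summed to between 5414 and 6800 CPM. All 10 were higher in SM than in NSM (median log2 fold change 0.12). Of these, 3 had an unadjusted p under 0.05 by voom-limma, against 21.5% of all genes, and 0 passed after adjustment. Of 10 markers of cortical glutamatergic neurons 0 had an adjusted p under 0.05 in any comparison (voom-limma). At an unadjusted p under 0.05, 5 were higher in SM than in NSM (21.5% of all genes in either direction). In NSF against NSM 5 were higher (15.4%), and in SF against NSF 1 was higher (4.23%), where 8 of 10 lay below 0. None of the 10 was at 0 in any group. Their summed level was 172 to 189 CPM in NSM, 256 to 389 CPM in SM, 196 to 537 CPM in NSF and 214 to 311 CPM in SF. The highest marker alone had a mean of 99.7 CPM in NSM, 117 in SM, 174 in NSF and 108 in SF. In SM all 5 red blood cell markers were above NSM at an adjusted p under 0.05 (summed level 21.8 to 27.4 CPM in NSM and 38.5 to 47.2 CPM in SM). Of 5 oligodendrocyte markers 4 were higher in SM at an unadjusted p under 0.05 and 2 after adjustment (summed level 4275 to 4779 CPM in NSM and 5158 to 5199 CPM in SM), and of 5 microglia markers likewise 4 and 2 (205 to 225 CPM and 232 to 259 CPM). The summed choroid plexus markers had a median of 39.6 CPM in NSM but reached 108 CPM there, against at most 43.6 CPM in the other groups. Between NSF and NSM, 3 of 5 oligodendrocyte and 2 of 5 red blood cell markers were higher in NSF at an unadjusted p under 0.05 (voom-limma). There 2 of 5 astrocyte markers were lower and 2 of 5 endothelial markers higher, against 15.4% of all genes in either direction. Between SF and NSF 2 of 5 endothelial markers were lower at an unadjusted p under 0.05 (voom-limma), against 4.23% of all genes. All 5 endothelial markers lay below 0 there, and 0 passed after adjustment. In males 1 of 5 endothelial markers was higher and 1 lower at an unadjusted p under 0.05. The part of these shifts in the results below was not tested beyond a fit with the cortical marker mean as a covariate. In bulk punches, a change in the make-up of cells and a change in RNA per cell cannot be told apart.

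All 10 members were expressed at moderate levels, and the order of their group means was the same in the 4 groups apart from neighbours that changed places, *Eif2c2* above *Drosha* in NSM and *Eif2c1* above *Tnrc6a* in SM. *Drosha*, at 21.8 ± 0.629 RPKM (mean ± SD over 12 libraries), and *Eif2c2*, at 21.7 ± 2.07 RPKM, led the order. *Eif2c2* was below *Drosha* in 6 of 12 libraries, and the ranges overlapped. *Xpo5* followed at 16.6 ± 0.610 RPKM, below *Eif2c2* in all 12 libraries. *Tnrc6a* (13.8 ± 0.805 RPKM) and *Eif2c1* (13.5 ± 0.344 RPKM) were neighbours whose ranges overlapped, with *Eif2c1* the lower in 9 of 12 libraries.

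*Dicer1* stood lower in the order, at 8.14 ± 0.475 RPKM, and its range (7.46 to 9.00 RPKM) did not reach that of *Eif2c1*. *Tnrc6b* had 6.96 ± 0.442 RPKM and *Dgcr8* 5.43 ± 0.292 RPKM. The RNA-binding helpers of Dicer were the lowest, *Prkra* with 4.68 ± 0.354 RPKM and *Tarbp2* with 3.78 ± 0.310 RPKM. Each of these was below its upper neighbour in all 12 libraries, apart from *Prkra*, which was below *Dgcr8* in 11. The range of *Eif2c2*, from 19.0 to 24.5 RPKM, was the widest of the 10 in RPKM, and the ratio of its highest group mean (NSM) to its lowest (SM) was 1.26, against 1.04 to 1.13 for the other members.

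**Figure D1:**
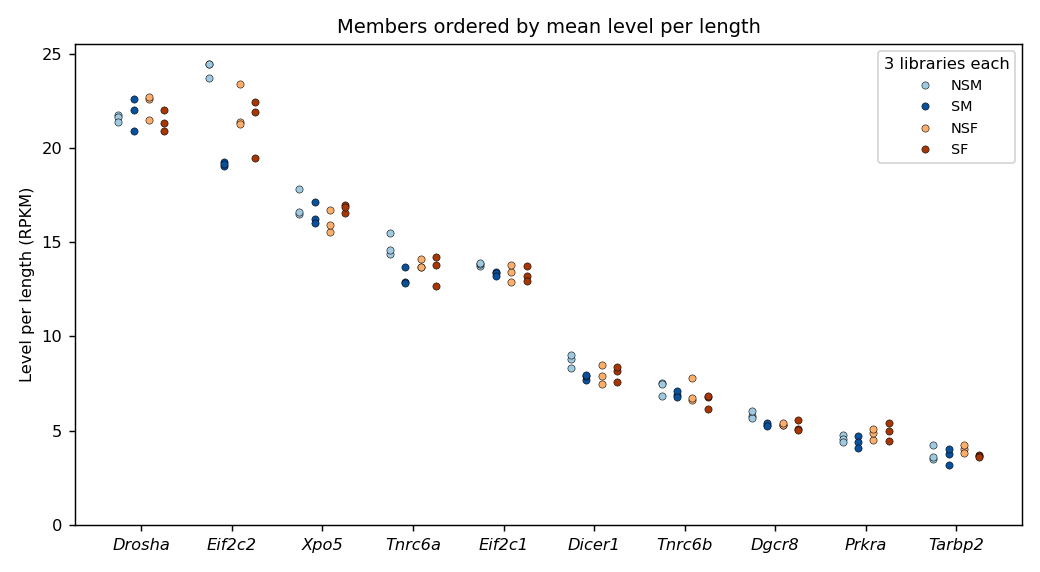
Level per length (RPKM, linear axis from 0) of the 10 members, ordered by their mean over 12 libraries, with 1 point per library and colours for the 4 groups. *Drosha* and *Eif2c2* lead with means of 21.8 and 21.7 RPKM, *Tarbp2* is lowest with 3.78 RPKM, and the *Eif2c2* points of SM lie below those of *Drosha*.

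The first comparison asked whether SCVS changed the machinery in males. *Eif2c2* was lower in SM than in NSM, by a fold of 0.791, and no other member passed the adjusted threshold. *Tnrc6a*, *Dicer1* and *Dgcr8* were lower at an unadjusted p under 0.05 only. *Drosha*, *Xpo5*, *Tarbp2*, *Prkra*, *Eif2c1* and *Tnrc6b* had log2 fold changes between -0.07 and 0.02. The test was voom-limma over all 18593 genes, with p-values adjusted by the method of Benjamini and Hochberg. A gene was called at an unadjusted p under 0.05 together with a fold change of at least 1.3.

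By that call rule 0 of 10 members were called in males, where 6.44% of all tested genes were called. At an adjusted p under 0.05 it was 1 of 10, against 3.32% of all genes. At an unadjusted p under 0.05 it was 4 of 10, all lower in SM, against 21.5% of all genes in either direction. The CPM ranges of SM and NSM did not overlap for 5 of 10 members, all lower in SM, against 23.0% of all genes. The median log2 fold change was -0.06 over the members and -0.01 over all tested genes, and 9 of 10 members were below 0 (all 10 when libraries were scaled by library size only), against 52.7% of all genes.

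Among the Argonautes, *Eif2c2* had 196, 190.3 and 196 CPM in the 3 NSM libraries and 154, 153 and 154 CPM in the 3 SM libraries. Every stressed library was below every unstressed one, and the SM libraries differed little among themselves. The log2 fold change was -0.34 (SE 0.06, 95% confidence interval -0.46 to -0.22, adjusted p = 0.0085 by voom-limma). This stayed short of the 1.3-fold threshold unless libraries were scaled by library size only, where the log2 fold change was -0.39. With the cortical marker mean as a covariate the log2 fold change of *Eif2c2* was -0.24 and its adjusted p 0.15 (voom-limma), and 1 gene of 18593 had an adjusted p under 0.05 in that fit. Without SM replicate 2 the adjusted p was 0.055.

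*Eif2c1*, which encodes another Argonaute, had 114, 114 and 115 CPM in NSM and 111, 111 and 109 CPM in SM. These groups did not overlap either, but the difference was small (log2 fold change -0.05, SE 0.04, adjusted p = 0.53 by voom-limma). Because both genes are read from the same libraries, their ratio does not depend on the scaling between libraries. Per length, *Eif2c2* was 1.71, 1.76 and 1.78 times *Eif2c1* in the NSM libraries and 1.42, 1.43 and 1.45 times in the SM libraries. The ranges of the ratio did not overlap, and the exact permutation test (two-sided) gave p = 0.10, the smallest that 3 libraries against 3 can give, with an adjusted p of 0.30 over the 6 ratio tests made.

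*Eif2c2* was the largest part of the Argonaute mRNAs in all 4 groups. The summed level of the 4 Argonaute genes was 45.3 to 46.6 RPKM in NSM and 38.9 to 39.5 RPKM in SM. *Eif2c2* made up 52.8% ± 0.770 of this sum in NSM and 48.8% ± 0.490 in SM (SD, n = 3), while *Eif2c1* made up 30.1% ± 0.375 and 34.1% ± 0.532. *Eif2c3* (Ago3) had 83.1 ± 4.78 CPM in NSM and 68.7 ± 5.36 CPM in SM, a log2 fold change of -0.28 (SE 0.07, adjusted p = 0.052 by voom-limma). *Eif2c4* (Ago4) differed by -0.12 (SE 0.10) on the log2 scale.

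*Tnrc6a*, the scaffold that joins Argonaute to the deadenylases, had 118, 120.4 and 128 CPM in NSM and 106, 106 and 113 CPM in SM. All 3 stressed libraries were below the unstressed ones. The log2 fold change was -0.17 (SE 0.05, adjusted p = 0.084 by voom-limma). Its relative *Tnrc6b* had 117, 128 and 127 CPM in NSM and 117, 121 and 115 CPM in SM, which overlapped (log2 fold change -0.07, SE 0.07). The ratio of *Tnrc6a* to *Tnrc6b* per length was 1.94 to 2.09 in NSM and 1.81 to 2.02 in SM (exact permutation p = 0.20, adjusted p = 0.40).

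*Dicer1* had 88.4, 83.6 and 90.6 CPM in NSM and 77.2, 79.7 and 80.2 CPM in SM. The groups did not overlap, and the difference of -0.15 on the log2 scale (SE 0.06) did not pass after adjustment (adjusted p = 0.15, voom-limma). Its unadjusted p was above 0.05 without NSM replicate 1, NSM replicate 3 or SM replicate 1, with 0.091 as the highest value, and it was 0.27 with the cortical covariate. Of Dicer's helpers, *Tarbp2* had 15.8, 16.4 and 19.2 CPM in NSM and 17.1, 14.5 and 18.2 CPM in SM. *Prkra* had 9.64, 9.29 and 8.88 CPM in NSM and 9.59, 8.93 and 8.33 CPM in SM. Both overlapped between the groups (log2 fold changes -0.05, SE 0.09, and -0.06, SE 0.09).

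In the nucleus, *Dgcr8* had 42.0, 41.3 and 44.2 CPM in NSM and 38.7, 39.4 and 38.3 CPM in SM, without overlap. Its log2 fold change was -0.13 (SE 0.05, adjusted p = 0.15 by voom-limma), and without NSM replicate 3 the unadjusted p was 0.11 without SM replicate 1 it was 0.051, and with the cortical covariate it was 0.077. *Drosha*, its partner nuclease, had 129, 129 and 127 CPM in NSM and 131, 134 and 124 CPM in SM, which overlapped (log2 fold change 0.02, SE 0.04). The ratio of *Drosha* to *Dgcr8* per length was 3.53 to 3.82 in NSM and 3.98 to 4.18 in SM (exact permutation p = 0.10, the smallest possible, adjusted p = 0.30). *Dgcr8* overlaps *Trmt2a* on the opposite strand, and the library kit does not mark strand, so reads of the shared stretch cannot be told apart. *Xpo5* had 66.1, 61.2 and 61.6 CPM in NSM and 60.2, 63.6 and 59.4 CPM in SM (log2 fold change -0.04, SE 0.05).

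**Figure D2:**
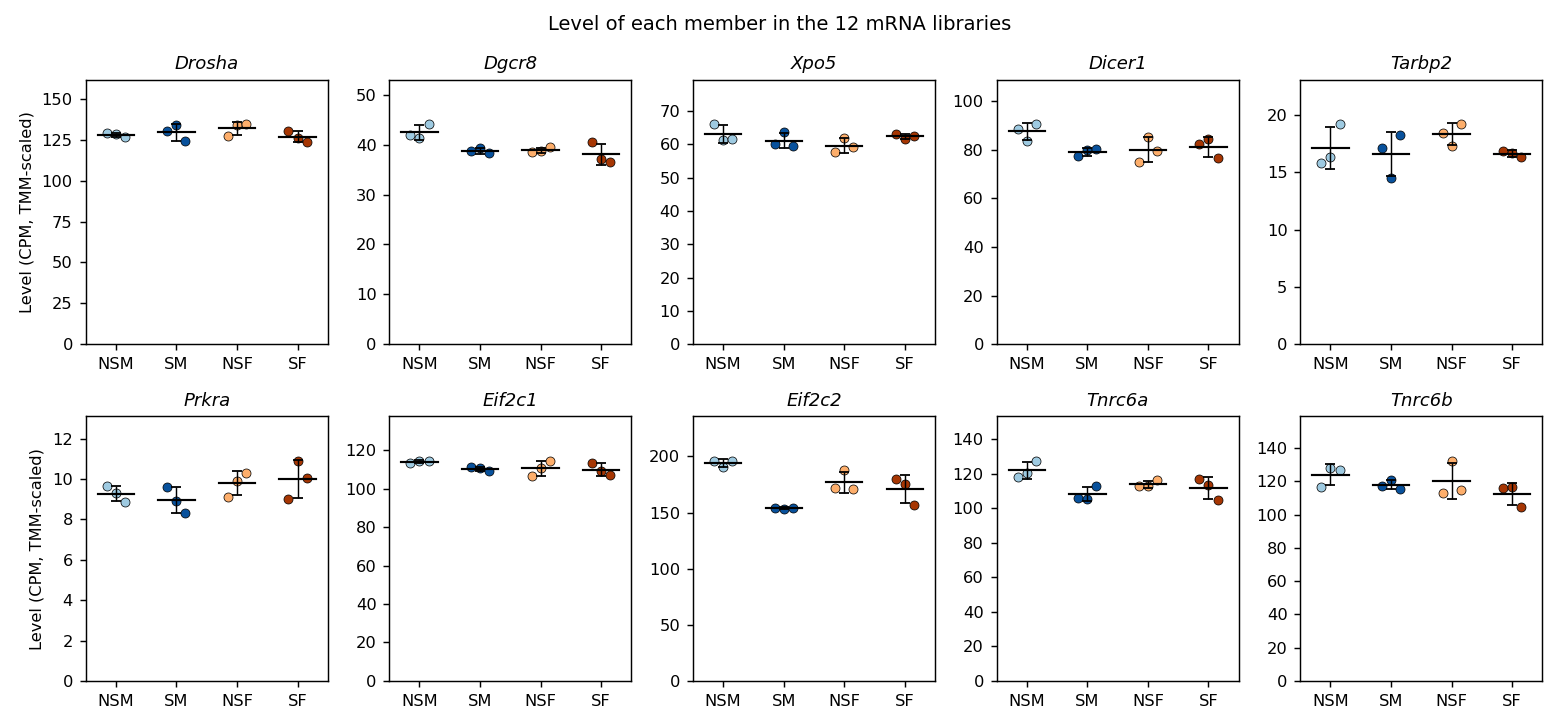
Level of each member (CPM scaled by TMM factors, linear axes from 0) in the 3 libraries of each group, with black lines for the group mean and bars for the SD. The 3 SM points of *Eif2c2*, at 153 to 154 CPM, lie below all other points of that gene, and the 4 groups of *Drosha* overlap.

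In females no member differed between SF and NSF beyond the spread between pools. None of the 10 members was called (1.73% of all genes), none had an adjusted p under 0.05 (0% of all genes), and none had an unadjusted p under 0.05 (4.23% of all genes) by voom-limma. By edgeR and DESeq2 as well, 0 of 10 were called and 0 of 10 had an adjusted p under 0.05. *Tarbp2* was the 1 of 10 members whose groups did not overlap, against 11.3% of all genes. It had 18.4, 17.3 and 19.2 CPM in NSF and 16.9, 16.7 and 16.3 CPM in SF (log2 fold change -0.13, SE 0.09, adjusted p = 0.95).

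*Eif2c2* had 172, 188 and 171 CPM in NSF and 180.0, 176 and 157 CPM in SF. The groups overlapped, and the log2 fold change was -0.05 with a 95% confidence interval of -0.17 to 0.07. Its ratio to *Eif2c1* per length was 1.65 ± 0.102 in NSF and 1.60 ± 0.0821 in SF (mean ± SD, exact permutation p = 0.50, adjusted p = 0.60). *Dicer1* had 75.0, 85.3 and 79.3 CPM in NSF and 82.1, 84.3 and 76.4 CPM in SF (95% confidence interval of the log2 fold change -0.10 to 0.14).

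*Tnrc6a* had 113, 113 and 116 CPM in NSF and 117, 114 and 105 CPM in SF (95% confidence interval -0.14 to 0.08). *Dgcr8* had 38.5, 38.7 and 39.4 CPM in NSF and 40.5, 37.2 and 36.6 CPM in SF (95% confidence interval -0.14 to 0.07). In these 4 genes SF replicate 3 was the lowest of the 3 stressed female libraries. For the other members the log2 fold change lay between -0.13 (*Tarbp2*) and 0.07 (*Xpo5*), and the widest interval, that of *Tarbp2*, reached from -0.32 to 0.05.

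**Figure D3:**
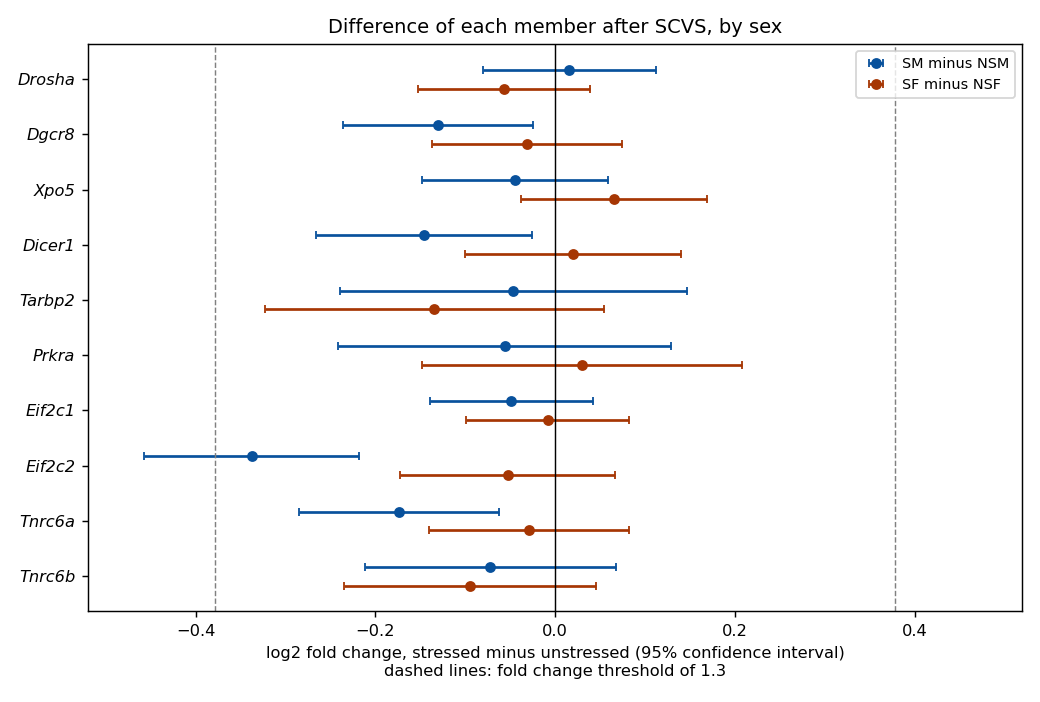
Log2 fold change of each member, stressed minus unstressed, in males (blue) and females (brown) from the voom-limma fit over 12 libraries, with bars for the 95% confidence interval and dashed lines at the 1.3-fold threshold. The male interval of *Eif2c2* (-0.46 to -0.22) lies below 0 and contains the threshold, and all female intervals contain 0.

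Whether the effect of SCVS differed between the sexes was tested as the difference of the 2 stress effects. None of the 10 members was called (4.42% of all genes) or had an adjusted p under 0.05 (0.0269% of all genes), by voom-limma, edgeR or DESeq2. At an unadjusted p under 0.05 it was 1 of 10, *Eif2c2*, against 9.55% of all genes. The stress effect on *Eif2c2* was 0.28 higher in females on the log2 scale (SE 0.08), with an adjusted p of 0.26 that ranged from 0.066 to 0.92 over the alternatives. With the cortical covariate the difference was 0.15 for *Eif2c2* (SE 0.10) and 0.083 for *Dicer1* (SE 0.11), neither at an unadjusted p under 0.05. For *Dicer1* the difference was 0.17 (SE 0.08) and for *Tnrc6a* 0.14 (SE 0.07), with adjusted p-values of 0.54 and 0.57 (voom-limma). A difference between the sexes in the response of these genes was therefore not shown by the adjusted test.

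Unstressed females and unstressed males were compared to describe the baseline that the 2 stress effects start from, and this comparison shares the NSM libraries with the male one. No member was called (5.31% of all genes) or passed the adjusted threshold (0.285% of all genes), with the same 0 of 10 by edgeR and DESeq2. At an unadjusted p under 0.05 it was 3 of 10, all lower in NSF, against 15.4% of all genes: *Eif2c2* with a log2 difference of -0.14 (SE 0.06), *Dicer1* with -0.13 (SE 0.06) and *Dgcr8* with -0.13 (SE 0.05). Their adjusted p-values were 0.27, 0.28 and 0.23 (voom-limma). With the cortical covariate the differences were -0.03 (SE 0.07), -0.07 (SE 0.08) and -0.13 (SE 0.07), and none had an unadjusted p under 0.05. The groups did not overlap for 3 of 10 members (*Eif2c2*, *Tnrc6a* and *Dgcr8*), against 19.5% of all genes.

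NSM had the highest group mean of 7 of 10 members, *Eif2c2* and *Dgcr8* among them. The share of all genes that were highest in NSM is not given here, so this count is no result about the members. The *Eif2c2* level was 194 ± 3.52 CPM in NSM, 177 ± 9.62 in NSF, 171 ± 12.5 in SF and 154 ± 0.814 in SM (mean ± SD, n = 3), and the NSF and SF ranges overlapped. The *Dgcr8* level was 42.5 ± 1.49 CPM in NSM and between 38.1 and 38.9 CPM in the other groups. The mean log2 CPM of the cortical markers was also lowest in NSM, with 0.520 to 1.58, against 2.16 to 3.69 in SM, 1.71 to 4.24 in NSF and 2.08 to 3.15 in SF. Library by library, in the order of the replicates, the cortical means were 1.21, 0.520 and 1.58 in NSM, beside 196, 190.3 and 196 CPM of *Eif2c2*. They were 2.16, 3.33 and 3.69 in SM, beside 154, 153 and 154 CPM. In NSF they were 3.86, 1.71 and 4.24, beside 172, 188 and 171 CPM, and in SF 2.18, 2.08 and 3.15, beside 180.0, 176 and 157 CPM. A link between the cortical means and *Eif2c2* was not tested beyond the fit with the cortical covariate.

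**Figure D4:**
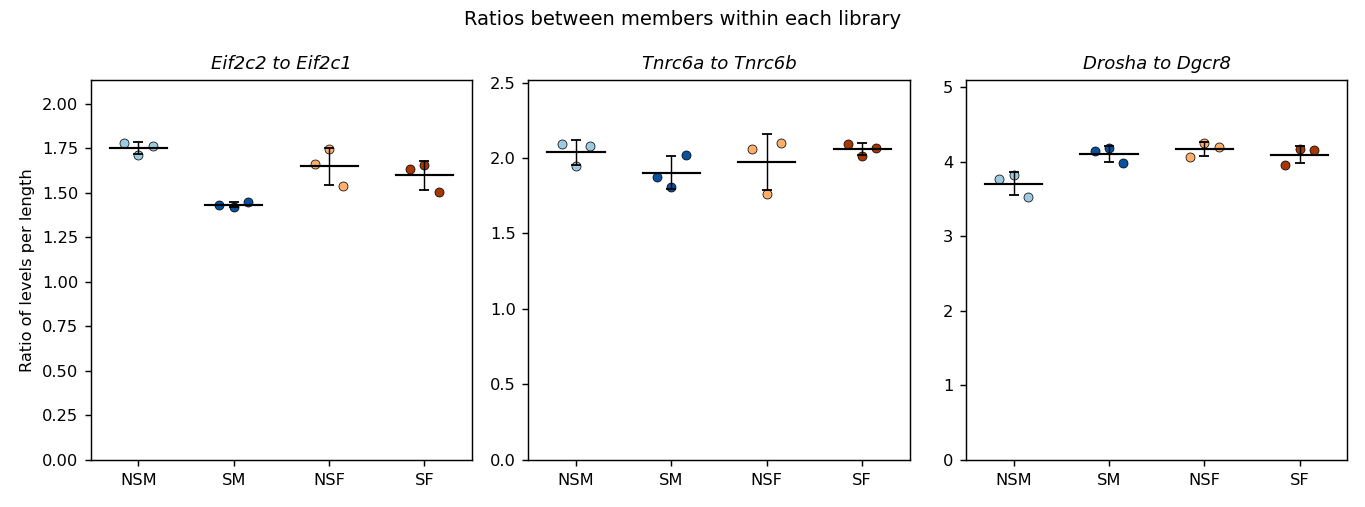
Ratios between members within each library, from levels per length (linear axes from 0), with black lines for the group mean and bars for the SD. The ratio of *Eif2c2* to *Eif2c1* is 1.42 to 1.45 in SM, below all libraries of the other groups, and the ratio of *Drosha* to *Dgcr8* is lowest in NSM (3.53 to 3.82).

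The 10 members did not all move together across the 12 libraries, although some of them did. Over the 45 pairs of members the median Pearson correlation of log2 CPM was 0.19, and 37 pairs were above 0. The highest value was 0.84 for *Eif2c2* and *Tnrc6a*, and the lowest was -0.70 for *Xpo5* and *Tarbp2*. All pairs among *Dgcr8*, *Dicer1*, *Eif2c1*, *Eif2c2*, *Tnrc6a* and *Tnrc6b* lay between 0.49 and 0.84. Pairs with *Drosha*, *Xpo5*, *Tarbp2* or *Prkra* lay between -0.70 and 0.55. These correlations describe 12 libraries that share the group differences given above, and no share over all gene pairs is given here. Among 17574 genes with a mean of at least 10 reads, those most like *Eif2c2* in pattern were *Rps6ka2* (r = 0.97), *Txlng* (0.96), *Sik2*, *Mll1* and *D630045J12Rik* (0.95 each). Those most like *Dicer1* were *4922501C03Rik* (r = 0.94), *Sec24b*, *Mical3*, *Hnrnph3* and *Atp6v1c2* (0.90 to 0.91).

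Beyond the 10 members, 58 of 59 further genes of the pathway were tested. In males 2 of 58 were called (6.44% of all genes), 3 had an adjusted p under 0.05 (3.32% of all genes) and 16 an unadjusted p under 0.05 (21.5% of all genes), of which 11 were lower in SM. These counts are near the background and are no result about the list. The 2 called genes were *Parn* and *Trim71*. *Parn*, a poly(A)-specific ribonuclease that shortens mRNA tails, rose from 25.1 ± 1.85 CPM in NSM to 33.2 ± 1.09 CPM in SM (log2 fold change 0.41, SE 0.06, adjusted p = 0.0039 by voom-limma). *Trim71*, known for its part in let-7 biology, was read only 5 to 12 times in an NSM library and 11 to 17 times in an SM library (log2 fold change 1.06, SE 0.33, adjusted p = 0.093), so that its fold rests on few reads. *Trim71* was also the 1 gene of 58 called between NSF and NSM (log2 difference 1.09, 5.31% of all genes called) and in the difference between the stress effects (-1.17, 4.42% of all genes called). It was left out of the tests with at least 10 reads in every library, its difference between the stress effects was not called by DESeq2, and without NSM replicate 1 neither that difference (-0.82) nor the one in males (0.71) was called.

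Of the loading factors, *Fkbp4*, a co-chaperone of Hsp90, fell from 102 ± 3.07 CPM to 84.4 ± 2.39 CPM in males (log2 fold change -0.28, SE 0.04, adjusted p = 0.0074 by voom-limma). *Cnot3*, a subunit of the CCR4-NOT deadenylase, fell from 35.9 ± 3.40 CPM to 28.4 ± 1.15 CPM (log2 fold change -0.34, SE 0.08, adjusted p = 0.032). With the cortical covariate the adjusted p was 0.074 for *Parn*, 0.096 for *Fkbp4* and 0.22 for *Cnot3* (voom-limma), with log2 fold changes of 0.45, -0.28 and -0.29. The adjusted p was also above 0.05 without SM replicate 2 for *Fkbp4* (0.055), and for *Cnot3* without NSM replicate 2, NSM replicate 3, SM replicate 1 or SM replicate 2 (0.078 to 0.14) and with only the 6 male libraries (0.055). Among 14 tested microprocessor and hairpin cofactors none was called or passed the adjusted threshold in males by voom-limma, against 6.44% and 3.32% of all genes. At an unadjusted p under 0.05, 4 of 14 were lower, against 21.5% of all genes in either direction, with *Khsrp* at -0.24 (SE 0.06, adjusted p = 0.056) and *Ddx17* at -0.23 (SE 0.08, adjusted p = 0.10) on the log2 scale. In females 0 of 58 were called by voom-limma, edgeR or DESeq2, and 0 of 58 had an unadjusted p under 0.05 by voom-limma, against 1.73% and 4.23% of all genes. *Parn* had 27.2 ± 0.842 CPM in NSF and 28.7 ± 0.406 CPM in SF, *Fkbp4* 92.3 ± 3.26 and 93.3 ± 1.91 CPM, and *Cnot3* 35.7 ± 3.12 and 33.6 ± 0.586 CPM. The differences between the sexes in these stress effects had adjusted p-values of 0.20, 0.14 and 0.48 (voom-limma).

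The small RNA libraries give the output of the machinery, as far as total reads can show it. NSM libraries held 6738555, 5422338 and 5086554 reads on miRs, and SM libraries 11464455, 13522287 and 6455641. The groups overlapped, because the third SM library was below the first NSM library. The mean log2 difference was 0.81, and the exact permutation test (two-sided) gave p = 0.20, where 3 against 3 can give no less than 0.10. NSF libraries held 7373536, 10588174 and 7826154 reads and SF libraries 9472149, 6831869 and 10771409 (log2 difference 0.06, exact permutation p = 0.90). The total also depends on how much of each library was loaded for sequencing, which was not analysed here, so it gives the depth behind each miR level rather than an amount of miR per cell.

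The 23 listed miRs were then compared between groups in the same way, with 500 miRs tested, and 21 passed the filter. Of these, 15 are known regulators of *Dicer1* and 6 are known for their route of production, as the miR in *Dgcr8*, mirtrons or miRs made without Dgcr8. In males 1 of 21 was called (5.20% of all miRs), in females 1 of 21 (4.80%), in the difference between the 2 stress effects 2 of 21 (6.80%), and between unstressed females and males 2 of 21 (7.60%). None of the 21 had an adjusted p under 0.05 in any of the 4 comparisons by voom-limma, and the unadjusted p was under 0.05 for 1, 3, 2 and 3 of them. The shares called were near those of all miRs.

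mir-1306, whose seeds are printed above, had 15.9, 17.4 and 14.5 CPM in NSM and 15.8, 14.9 and 14.2 CPM in SM. It had 18.6, 21.5 and 26.3 CPM in NSF and 18.0, 20.2 and 14.3 CPM in SF. The NSF libraries lay above all NSM libraries, and this was the called comparison (log2 difference 0.46, SE 0.16, adjusted p = 0.19 by voom-limma). The difference between SF and NSF was -0.36 (SE 0.15, adjusted p = 0.55), with overlapping groups, and that between SM and NSM was -0.08 (SE 0.16). Each library held 76 to 222 reads of it. In the mRNA of the same pools, *Dgcr8*, which holds this hairpin, was lower in NSF than in NSM, with a log2 difference of -0.13 and an adjusted p of 0.23 (voom-limma). mir-1306 and *Dgcr8* thus had opposite signs in that comparison, neither past the adjusted threshold, and the same sign in both stress comparisons.

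**Figure D5:**
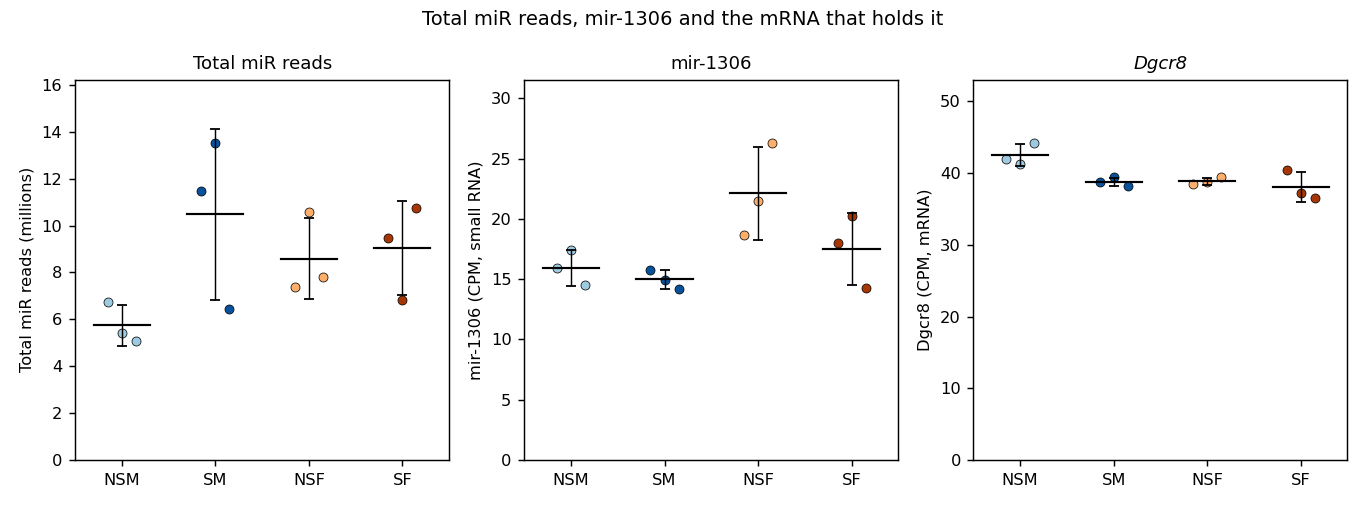
Total miR reads, mir-1306 (CPM in the small RNA) and *Dgcr8* (CPM in the mRNA) in the 3 libraries of each group (linear axes from 0), with black lines for the group mean and bars for the SD. Total reads of SM range from 6455641 to 13522287, mir-1306 is highest in NSF (18.6 to 26.3 CPM), and *Dgcr8* is highest in NSM (41.3 to 44.2 CPM).

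The mirtrons, which reach Dicer without Drosha and Dgcr8, did not share a direction. mir-877 had 18.1, 24.5 and 25.5 CPM in NSM and 14.3, 15.5 and 18.8 CPM in SM (log2 fold change -0.49, SE 0.17, adjusted p = 0.21 by voom-limma). The groups overlapped, and mir-877 was not among the called miRs in females (log2 fold change 0.02, SE 0.17). mir-1981 had 377, 452 and 502 CPM in NSF and 315, 402 and 308 CPM in SF (log2 fold change -0.39, SE 0.15, adjusted p = 0.47). NSF also exceeded NSM, where it had 304, 299.6 and 243 CPM (log2 difference 0.65, SE 0.15, adjusted p = 0.057). The third tested mirtron, mir-1224, differed by -0.05 (SE 0.18) in males and -0.02 (SE 0.17) in females. In males mir-1981 differed by 0.08 (SE 0.15). The 2 miRs called in the difference between the stress effects were mir-877 (0.51, SE 0.24) and mir-1981 (-0.46, SE 0.21). Each had an adjusted p of 0.54 (voom-limma).

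mir-320 and mir-484, which are known to be made without Dgcr8, were not called in any comparison. In males they differed by 0.01 (SE 0.10) and 0.16 (SE 0.09) on the log2 scale and in females by 0.14 (SE 0.10) and 0.10 (SE 0.09). mir-451a, the miR whose precursor is cut by Ago2 in place of Dicer, was listed at 0 reads in all 12 libraries, and so was mir-451b, which RefSeq places on the opposite strand of the same stretch. How the counting treated reads shared by both rows is not given in the sources used here, so no level and no limit is taken from the zeros. The study's supplement lists mature miR-451a among the miRs higher in stressed males. The zeros of the precursor row are therefore not read as absence of this miR.

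Among the 15 precursors of the let-7 family and of mir-103 and mir-107, known regulators of *Dicer1*, none was called in either sex by voom-limma, against 5.20% and 4.80% of all miRs, and 0 and 1 of 15 had an unadjusted p under 0.05. In males 2 of 15 were below 0, against 53.4% of all miRs, and in females 8 of 15, against 48.4%. In males the log2 fold changes ran from -0.15 (let-7b) to 0.17 (mir-103-2, SE 0.08, adjusted p = 0.40 by voom-limma). let-7b had 63589, 64844 and 53015 CPM in NSM, 57713, 50570.2 and 54408 CPM in SM, 76302.5, 79140.4 and 66858 CPM in NSF and 64375, 63627 and 53367 CPM in SF. Its SF libraries lay below all NSF libraries (log2 fold change -0.30, SE 0.10, adjusted p = 0.34), and its NSF libraries above all NSM libraries (log2 difference 0.29, SE 0.10, adjusted p = 0.17). Precursors of 1 family share mature sequences, so reads could have been split between let-7a-1 and let-7a-2 or between mir-103-1 and mir-103-2 by the counting.

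To see which members hold letters that pair with these seeds, the 3′ UTR of the longest coding transcript of each member in the annotation of NCBIM37 was searched for CTACCTC (let-7) and ATGCTGC (miR-103 and miR-107) on the transcript strand. The *Dicer1* UTR of 3851 bases held 1 match to ATGCTGC, where 29.6% of 653 other UTRs within 10% of its length held at least 1. It held no match to CTACCTC, which 25.4% of them held at least once. Coding sequence was not searched, so this does not show that *Dicer1* lacks a let-7 site. The *Eif2c2* UTR of 5283 bases held 1 match to CTACCTC, where 30.3% of 277 UTRs of like length held at least 1. Matches to ATGCTGC were also found in *Dgcr8* (1), *Eif2c1* (1) and *Tnrc6b* (2), where 12.3%, 30.6% and 66.7% of UTRs of like length held at least 1. For *Tnrc6b* there were only 9 such UTRs. *Drosha*, *Xpo5*, *Prkra* and *Tnrc6a* held no match to either. The UTRs of *Drosha* (168 bases), *Xpo5* (28) and *Prkra* (513) are short. Each match was held by at most 4.73% of UTRs of like length, so its absence there says little. *Tarbp2* held 1 match to CTACCTC and 2 to ATGCTGC in 1221 bases, where 9.93% and 12.0% of 1329 UTRs of like length held at least 1. Of these, 1 window each in *Dicer1* (chr12:105928369-105928397, minus strand), *Eif2c2* (chr15:72932144-72932172, minus strand) and *Tarbp2* (chr15:102353864-102353892, plus strand) is shown with the match in capitals.
Dicer1: tgcttcatgtaATGCTGCacttaggttca
Eif2c2: atgcataaaagCTACCTCtgacttctcat
Tarbp2: aggtgccatctCTACCTCtgacacagcct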

How the data were processed

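Messenger RNA and small RNA of the NAc were measured in 12 libraries each. The mRNA values that the authors deposited are raw read counts per gene, from paired reads aligned with TopHat2 to NCBIM37 and counted with HTSeq. The deposited small RNA values are raw read counts per miR precursor, from reads aligned to mm9 with Bowtie and counted with HTSeq. The strand setting is not given in the sources used here. Groups were taken from the sample titles, and no library was left out. Genes and miRs had to exceed 5 reads in 80% or more of 1 condition's libraries. They were scaled by TMM (edgeR 4.0.16) and fitted with voom in limma 3.58.1 (R 4.3.3), with 1 mean per group over 12 libraries. P-values were adjusted over all tested features of an assay, 18593 genes or 500 miRs. Total miR reads and ratios were compared by exact permutation tests (scipy 1.17.1), as differences in mean log2 values. Gene names and exon lengths came from GENCODE for NCBIM37, and RPKM was computed from TMM-scaled CPM and the union of exons. With 3 pools per group, p-values measure the spread between pools. No pair of libraries in a group held the same counts.

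All 10 members are named. Of the other pathway genes, those called in any comparison and otherwise the 3 with the smallest p in males in each list could be named; *Eif2c4* and the female values of the named genes were added for the comparison of the Argonautes. The members and lists were chosen with earlier results of these data known. On simulated counts for SM and NSM, with 200 of 18593 genes changed 2-fold, 100% met the call rule and 95% the adjusted threshold of 0.05, as did 353 and 1 of the unchanged genes. The members differed by less, with *Eif2c2* in males the furthest at a fold of 0.791. These shares therefore do not give the power for changes of the size seen in the members. The alternatives comprised DESeq2 1.42.0, the quasi-likelihood test of edgeR, other scalings and filters, the 6 libraries of a comparison only, a replicate block, the cortical marker mean as a covariate, and leaving out each library. The ratios were chosen after the data were seen. Same-numbered libraries hold different mice. In the small RNA of females the deviations of all 3 same-numbered pairs from their group means correlated (0.13 to 0.31). Those numbers were therefore taken as pairs in the fit with the replicate block, which changed no call of the 21 miRs between SF and NSF. The miR values and p-values printed above for females come from the fit without the block. The permutation test of total miR reads was also unpaired. By number, total miR reads were higher in SF than in NSF in 2 of 3 pairs.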

Additional observations from a re-analysis of the deposited data

How the results depend on the processing

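The lower *Eif2c2* level in stressed males kept its direction in all 22 alternatives (10 settings and 12 fits without 1 library), with log2 fold changes from -0.39 to -0.24, and its adjusted p was above 0.05 in 2 of them, with the cortical marker mean as a covariate and without SM replicate 2. The number of members called in males was 1 with library size only, and the number with an adjusted p under 0.05 was 0 with the cortical covariate and 0 to 1 without single libraries. Of 870 alternative values for the 40 log2 fold changes of members, 850 kept their direction and 20 turned, none of them a value past a threshold. With library size only, *Drosha* in males was -0.034 and the difference of *Tnrc6b* between the stress effects 0.0075. With the cortical covariate, *Tnrc6b* was 0.072 in males and 0.11 between NSF and NSM, *Dicer1* in females -0.0045 and the difference of *Tarbp2* between the stress effects 0.035. Without single libraries, the log2 fold change ran in males from -0.0030 to 0.047 for *Drosha* and from -0.12 to 0.060 for *Tarbp2*, and in females from -0.015 to 0.068 for *Dicer1*, -0.039 to 0.10 for *Prkra*, -0.032 to 0.020 for *Eif2c1*, -0.092 to 0.0087 for *Eif2c2* and -0.064 to 0.018 for *Tnrc6a*. The difference of *Tnrc6b* between the stress effects ran from -0.062 to 0.050, and the log2 ratio of *Tnrc6a* to *Tnrc6b* in females from -0.015 to 0.11. The cause of these turns was not tested. Total miR reads differed by 0.592 to 1.13 in males and by -0.077 to 0.251 in females on the log2 scale without single libraries.

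Of the other pathway genes, with at least 10 reads in every library 1 was called in males, 0 between NSF and NSM and 0 in the difference between the stress effects, where the count was 0 by DESeq2 and 2 with the cortical covariate. Without single libraries the count was 1 to 3 in males and 0 to 1 in females. Of the 21 miRs, 0 were called in females with library size only or quantile normalization, and 1 in the difference between the stress effects by DESeq2, with library size only, DESeq2 size factors, quantile normalization, either other filter or the replicate block. Without single libraries the counts were 0 to 1 in males, 0 to 2 in females, 0 to 2 for the difference and 1 to 3 between NSF and NSM.

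Apart from the small RNA of females, 1 or 2 of 3 same-numbered pairs correlated above 0.1, and those numbers were not taken as pairs. In the mRNA of females the 3 correlations ran from 0.088 to 0.127. Whether same-numbered libraries share a step of handling was not tested. With the replicate block the adjusted p of *Eif2c2* in males was 0.0066, and 998 genes against 618 had an adjusted p under 0.05 there. Between NSF and NSM it was 562 against 53. In the mRNA, 2 of 6 male and 6 of 6 female libraries correlated best with their own number. The block changed no other count of called members, pathway genes or miRs. For *Trim71* and for mir-1306, with 5 to 21 and 76 to 222 reads a library, depth limits the precision.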
